A study of Mus musculus with 6 samples.

Results

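The genes of the AP-1 transcription factor and the immediate early genes that respond with it were followed in 6 mouse livers, 3 of which had received a guide RNA against Prdx2. Prdx2 encodes peroxiredoxin 2, an enzyme that removes hydrogen peroxide. The members were chosen by gene symbol, with earlier results of these data known: Fos, Fosb, Fosl1, Fosl2, Jun, Junb, Jund, Atf3, Egr1 and Myc. These are 10 of the 52459 genes in the count table, and all 10 had enough counts to be tested, as did 17032 genes in all. All 6 mice were male C57BL6J animals of the Alb-Cre/Cas9 F1 generation, in which the albumin promoter drives Cre, so that Cas9 is switched on in hepatocytes. An AAV8 vector with a U6-driven control guide was given to 3 mice (sgCtrl, mice 5.1, 7.1 and 7.2) and the same vector with a guide against Prdx2 to the other 3 (sgPrdx2, or Prdx2 KO, mice 1.1, 1.3 and 3.2). The vector was injected at 4 to 5 weeks of age. After 3 weeks both groups received diethylnitrosamine (DEN), a carcinogen that hepatocytes activate, at 100 mg/kg. From 1 week after DEN they were kept on a choline-deficient high-fat diet (CDA-HFD) for 6 months, and livers were labelled as 8 months old. No untreated mouse was among the samples, so every value is from a DEN-treated, CDA-HFD-fed liver.

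AP-1 is a dimer of basic leucine zipper proteins. Jun proteins (JUN, JUNB, JUND) pair with each other, with Fos proteins (FOS, FOSB and the products of Fosl1 and Fosl2, known as FRA1 and FRA2) or with ATF proteins such as ATF3, and the dimer binds a short palindromic site in promoters and enhancers. Most of these genes are immediate early genes, whose transcription rises within minutes of a growth factor, stress or injury signal without new protein synthesis, and whose RNAs are short-lived. In the liver they are known from regeneration after partial hepatectomy and from carcinogenesis, where JUN protects hepatocytes from cell death. EGR1, a zinc finger factor, and MYC, a driver of growth and ribosome production, respond to many of the same signals.

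Promoters from RefSeq (build GRCm38.p6) were matched by symbol for 7 of the 10 members (not used here were those of Fosl1, Egr1 and Myc). Of the 7, 5 are printed below as the last 150 bases before the start site, 5′ to 3′ on the strand of the gene, because 4 of these genes were highest in the same liver and the fifth, Atf3, was lower in every sgPrdx2 liver. Capitals mark the matches to the motifs named after them.
Fos, chr12:85473740-85473889, plus strand: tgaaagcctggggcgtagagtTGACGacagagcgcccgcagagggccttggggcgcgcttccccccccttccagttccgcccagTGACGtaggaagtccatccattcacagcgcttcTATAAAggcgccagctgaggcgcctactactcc
Fosb, chr7:19310046-19310195, minus strand: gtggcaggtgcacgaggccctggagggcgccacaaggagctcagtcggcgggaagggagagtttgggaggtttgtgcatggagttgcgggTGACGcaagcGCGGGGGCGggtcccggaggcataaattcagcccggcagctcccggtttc
Junb, chr8:84978749-84978898, minus strand: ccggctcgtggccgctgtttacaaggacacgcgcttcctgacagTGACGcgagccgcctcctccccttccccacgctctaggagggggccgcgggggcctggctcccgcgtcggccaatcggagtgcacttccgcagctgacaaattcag
Jun, chr4:95052223-95052372, minus strand: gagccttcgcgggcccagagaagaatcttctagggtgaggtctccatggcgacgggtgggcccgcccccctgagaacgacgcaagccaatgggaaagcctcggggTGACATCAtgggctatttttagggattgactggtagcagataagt
Atf3, chr1:191183334-191183483, minus strand: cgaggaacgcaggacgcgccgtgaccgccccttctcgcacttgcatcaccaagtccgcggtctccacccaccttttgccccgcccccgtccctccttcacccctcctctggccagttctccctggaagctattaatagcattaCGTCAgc

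Motifs were searched on both strands in the 250 bases before each start site, with positions counted back from the start. The letters TGACG, which also lie inside the full cAMP response element TGACGTCA, were found in 4 of the 7 members (Fos at -129 and -66, Fosb at -60, Junb at -106 and Atf3, as CGTCA, at -7), and 17.8% of 32851 RefSeq promoters held them. Jun had TGACATCA at -45, which 2.93% of promoters held. The EGR motif GCGGGGGCG lay at -50 in Fosb and at -79 in Fosl2, and 2.57% of promoters had it. Fos had TATAAA at -33, found in 12.4% of promoters. None of the 7 windows held TGACTCA, the AP-1 site itself (4.46% of promoters), the full TGACGTCA (1.55%) or the CArG box bound by SRF (1.47%), and the Jund window held no motif searched. The RefSeq start of Jund used for this window lies upstream of the GENCODE start given below, so the bases next to the latter were not searched. Bases further upstream than 250 and the promoter of Egr1 were not searched, so sites there would be missed. A match in these letters describes the sequence and does not show that a factor was bound.

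Libraries held between 37462102 and 56865293 counts. Levels are given as CPM, a gene's counts relative to its library's total after TMM scaling, and 3 counts, taken as the least number detected, stood for 0.0555 to 0.0921 CPM. This limit covers counting error only. No pair of libraries agreed within sampling noise. Prdx2, the targeted gene (chr8:84969587-84974834, plus strand), had 109, 117 and 132 CPM in sgCtrl livers 5.1, 7.1 and 7.2 and 99.0, 112 and 149 CPM in sgPrdx2 livers 1.1, 1.3 and 3.2. Its RNA level did not separate the groups (log2 fold change 0.01, SE 0.18, adjusted p = 0.983 in edgeR's quasi-likelihood test). An edit by Cas9 need not lower the RNA of its target, and the study checked the knockout by PRDX2 protein, which was not analysed here. The study also measured Prdx2 RNA by qRT-PCR in livers of this model, and those values were not used here. Besides Junb, Prdx2 overlaps Rnaseh2a on the opposite strand, with 177 exonic bases in common (5.80% of the exon length of Prdx2). Rnaseh2a had 1088 to 1474 counts in sgCtrl and 2857 to 3792 in sgPrdx2 livers, and without strand reads from those bases cannot be told apart. Liver 3.2 was highest for 30.04% and lowest for 32.2% of all genes tested, more than any other liver. Across all genes, edgeR called 567 of 17032 genes at an adjusted p under 0.05 (3.33%), and 262 of them (1.54%) were lower in sgPrdx2 livers.

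Of the 10 members, Fosl1 was called, lower in sgPrdx2 livers, and none was called higher. Without adjustment for the number of genes, 3 members had a p under 0.05 (Fosl1, Atf3 and Fosl2), all lower in sgPrdx2 livers. Of all genes tested, 24.9% had an unadjusted p under 0.05 and 11.9% had one with a lower level. DESeq2 called Fosl1 and Atf3, again as lower, where it called 13.4% of the 15329 genes it adjusted. All 3 sgPrdx2 livers lay below all 3 sgCtrl livers for Fosl1 and Atf3, 2 of the 10 members beside 17.5% of all genes tested. No member had all sgPrdx2 livers above all sgCtrl livers, which 16.7% of all genes did. The members' median log2 fold change was 0.08, beside -0.02 for all genes. In RNA from whole liver, fewer cells of a type and less RNA per cell cannot be told apart.

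**Figure D1:**
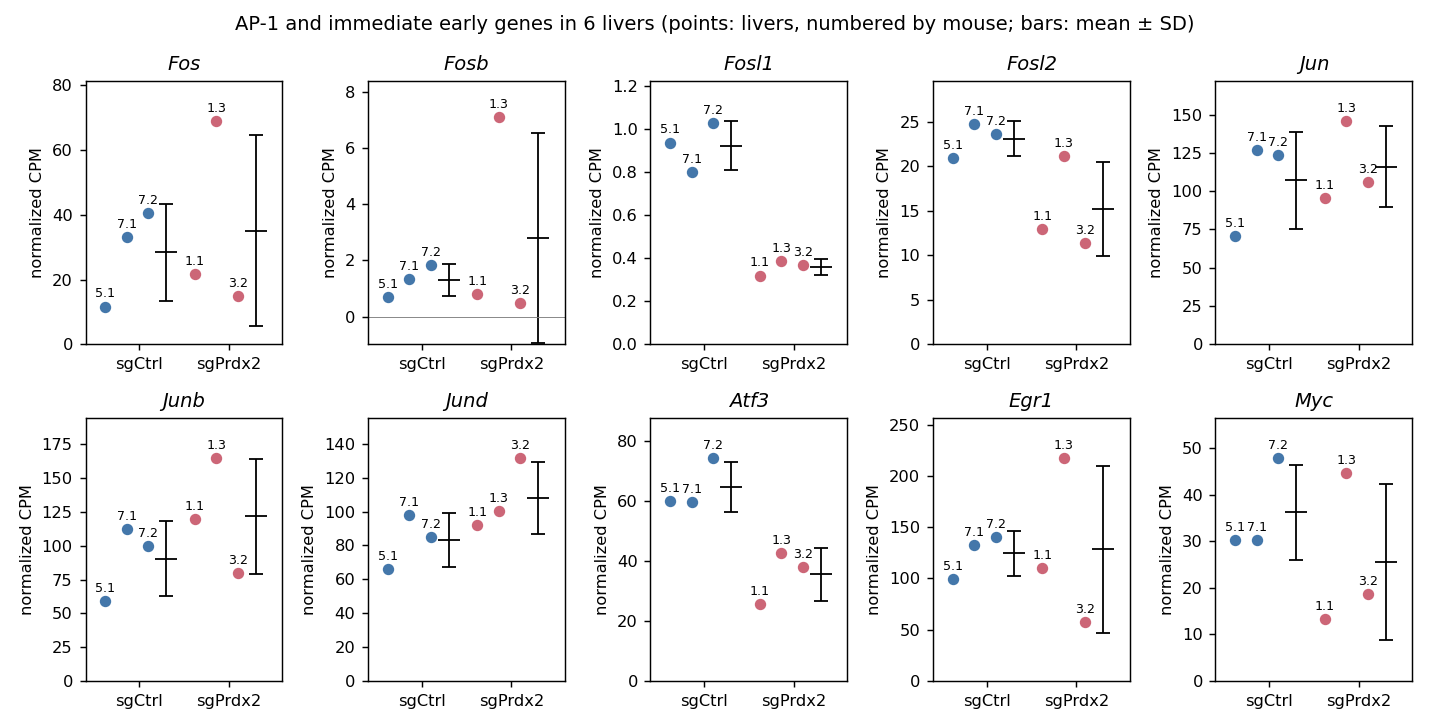
Normalized CPM of each member (vertical axes, 1 panel per gene) in the 3 sgCtrl and 3 sgPrdx2 livers (horizontal axes). Points are livers with the mouse number above them, and bars give the mean ± SD beside them. The sgCtrl and sgPrdx2 points do not overlap for Fosl1 and Atf3, while liver 1.3 stands above the other sgPrdx2 livers for Fos, Fosb, Egr1 and Myc.

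Within the Fos family, Fos and Fosb varied from liver to liver, Fosl1 was lower in sgPrdx2 livers, and Fosl2 did not pass after adjustment. Fos (chr12:85473890-85477273, plus strand), which encodes the classical partner of JUN, had 11.7, 33.1 and 40.6 CPM in sgCtrl livers 5.1, 7.1 and 7.2 and 21.6, 69.0 and 14.9 CPM in sgPrdx2 livers 1.1, 1.3 and 3.2. The groups overlapped, with the highest value in a sgPrdx2 liver and the lowest in a sgCtrl liver. The means were 28.5 ± 15.0 and 35.1 ± 29.5 CPM (SD, n = 3 each), a log2 fold change of 0.31 (SE 0.62, 95% interval -1.11 to 1.73, adjusted p = 0.780 in edgeR's quasi-likelihood test). An interval this wide does not show that the groups were alike.

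Fosb (chr7:19302696-19310051, minus strand), whose product also pairs with Jun proteins, was expressed at a far lower level. It had 0.708, 1.36 and 1.85 CPM in sgCtrl livers 5.1, 7.1 and 7.2 and 0.797, 7.12 and 0.491 CPM in sgPrdx2 livers 1.1, 1.3 and 3.2. The value in liver 1.3 came from 385 counts, against 35 and 16 counts in the other sgPrdx2 livers. Livers 1.1 and 3.2 lay within or below the sgCtrl range, and liver 1.3 alone set the positive sign of the log2 fold change of 1.12 (SE 0.90, adjusted p = 0.467 in edgeR's test).

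Fosl1, encoding FRA1, an AP-1 subunit known from wound healing, macrophages and tumour invasion, was lower in sgPrdx2 livers. Its levels were 0.937, 0.801 and 1.03 CPM in sgCtrl livers 5.1, 7.1 and 7.2, from 41, 36 and 54 counts. In sgPrdx2 livers 1.1, 1.3 and 3.2 they were 0.319, 0.388 and 0.369 CPM, from 14, 21 and 12 counts. Every sgPrdx2 liver lay below every sgCtrl liver and the values within each group were close, unlike those of Fos and Fosb. The log2 fold change was -1.35 (SE 0.27, 95% interval -1.97 to -0.74, adjusted p = 0.0455 in edgeR's quasi-likelihood test). The gene lies at chr19:5447547-5455946 on the plus strand, and 1163 of its exonic bases, 57.2% of its exon length, are also exon of Ccdc85b on the opposite strand (GENCODE M21). Ccdc85b had 766, 568 and 525 counts in the sgCtrl livers and 813, 973 and 1321 in the sgPrdx2 livers. Whether counting used the strand is not given in the sources used here, so the few Fosl1 counts may not all belong to Fosl1, and they may miss reads from the shared stretch. The call was lost when any 1 liver was left out (adjusted p up to 0.162), with the fold change negative each time.

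Fosl2, encoding FRA2, had 20.9, 24.7 and 23.7 CPM in sgCtrl livers 5.1, 7.1 and 7.2 and 13.0, 21.2 and 11.4 CPM in sgPrdx2 livers 1.1, 1.3 and 3.2. Liver 1.3 lay just above the lowest sgCtrl liver, and the other sgPrdx2 livers were well below it. The log2 fold change was -0.60 (SE 0.23, adjusted p = 0.161 in edgeR's test). The gene spans chr5:32135801-32157842 on the plus strand.

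None of the Jun family genes passed the test in either direction by edgeR or DESeq2, also at an unadjusted p under 0.05. Jun (chr4:95049034-95052222, minus strand, a gene without introns) had 70.4, 127 and 124 CPM in sgCtrl livers 5.1, 7.1 and 7.2 and 95.8, 146 and 106 CPM in sgPrdx2 livers 1.1, 1.3 and 3.2. The groups overlapped over most of their range (log2 fold change 0.12, SE 0.26, adjusted p = 0.802). The antisense gene Junos shares 7.28% of the exon length of Jun and had 39 to 87 counts per liver. Jund (chr8:70698949-70700616, plus strand, also without introns) encodes the Jun protein that resting cells express and that opposes proliferation. It had 66.1, 98.2 and 85.1 CPM in sgCtrl and 91.8, 101 and 132 CPM in sgPrdx2 livers. Liver 7.1 of the sgCtrl group exceeded liver 1.1 of the sgPrdx2 group, and otherwise the sgPrdx2 livers were higher (log2 fold change 0.38, SE 0.20, adjusted p = 0.277). Of the exon length of Jund, 52.6% is shared with the antisense gene Gm11175, which had 5 to 15 counts per liver against 2893 to 5438 for Jund.

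Junb, whose protein restrains JUN in several settings, is the neighbour of the edited gene. It lies at chr8:84974484-84978718 on the minus strand, tail to tail with Prdx2 on the plus strand, and the annotated spans overlap by 351 bases (84974484 to 84974834). Within them 173 bases are exonic in both genes, in the last exon of Prdx2 and an exon of a non-coding Junb transcript. These bases make up 7.52% of the exon length of Junb and 5.67% of that of Prdx2, and without strand their reads cannot be told apart. Junb had 59.2, 113 and 99.7 CPM in sgCtrl livers 5.1, 7.1 and 7.2 and 120, 165 and 80.1 CPM in sgPrdx2 livers 1.1, 1.3 and 3.2. Liver 1.3 was again the highest, liver 3.2 fell inside the sgCtrl range, and the log2 fold change was 0.43 (SE 0.31, 95% interval -0.29 to 1.14, adjusted p = 0.421 in edgeR's quasi-likelihood test). The order of the livers differed between the neighbours: Prdx2 was highest in liver 3.2, where Junb was the lowest of the sgPrdx2 livers.

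Atf3 encodes a stress-induced factor that pairs with Jun proteins and represses many target genes. Its levels were 60.1, 59.9 and 74.5 CPM in sgCtrl livers 5.1, 7.1 and 7.2 and 25.8, 42.8 and 38.1 CPM in sgPrdx2 livers 1.1, 1.3 and 3.2. All sgPrdx2 livers lay below all sgCtrl livers. The means of 64.8 ± 8.40 and 35.6 ± 8.80 CPM (SD, n = 3 each) gave a log2 fold change of -0.87 (SE 0.20, 95% interval -1.33 to -0.40). The adjusted p of 0.0587 in edgeR's test missed the threshold, which it passed with DESeq2, with total counts only and without a filter on low counts. With 1131 to 3917 counts per liver, this difference rests on far more reads than that of Fosl1. The gene spans chr1:191170296-191218039 on the minus strand, and the promoter printed above belongs to a start site inside that span.

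The differences in Egr1 and Myc between the groups were smaller than the spread of the livers. Egr1 (chr18:34859823-34864984, plus strand) had 99.7, 133 and 140 CPM in sgCtrl livers 5.1, 7.1 and 7.2 and 110, 218 and 57.1 CPM in sgPrdx2 livers 1.1, 1.3 and 3.2. The sgPrdx2 group held both the highest and the lowest liver, and the log2 fold change was 0.04 (SE 0.42, 95% interval -0.92 to 1.01, adjusted p = 0.956). Myc (chr15:61985391-61990374, plus strand) had 30.3, 30.3 and 47.9 CPM in sgCtrl and 13.4, 44.5 and 18.7 CPM in sgPrdx2 livers. Livers 1.1 and 3.2 were below every sgCtrl liver, and liver 1.3 was near the top of the sgCtrl range (log2 fold change -0.50, SE 0.42, adjusted p = 0.487 in edgeR's quasi-likelihood test).

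Liver 1.3 recurred as the liver with the highest levels. It was highest of all 6 livers for 5 of the 10 members (Fos, Fosb, Jun, Junb and Egr1), while it was highest for 8.00% of all genes tested. Against the mean of the other sgPrdx2 livers, it was 11.05-fold higher for Fosb, 3.78-fold for Fos, 2.78-fold for Myc, 2.60-fold for Egr1, 1.65-fold for Junb and 1.44-fold for Jun. Among sgCtrl livers, liver 5.1 had the lowest value of all 6 livers for 4 members (Fos, Jun, Junb and Jund), beside 18.5% of all genes, and livers 1.1 and 3.2 were each the lowest for 3. The library of liver 1.3 was the deepest, with 56865293 counts, and its part in these levels was not tested.

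Fosb, Fos, Egr1 and Myc varied more within the sgPrdx2 group than nearly all other genes. From the lowest to the highest sgPrdx2 liver, Fosb varied 14.5-fold, Fos 4.63-fold, Egr1 3.81-fold and Myc 3.33-fold. Of the 14123 genes whose mean reached 1 CPM, 0.0991% varied as much as Fosb, 0.701% as much as Fos, 1.09% as much as Egr1 and 1.41% as much as Myc, and the median gene varied 1.35-fold. In the sgCtrl livers Fos varied 3.48-fold, which 1.68% of genes equalled, and Egr1 1.41-fold, which 25.5% did. Atf3 varied 1.24-fold among sgCtrl and 1.66-fold among sgPrdx2 livers, which 47.7% and 20.8% of genes equalled, and Fosl1 varied 1.28-fold and 1.22-fold.

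**Figure D2:**
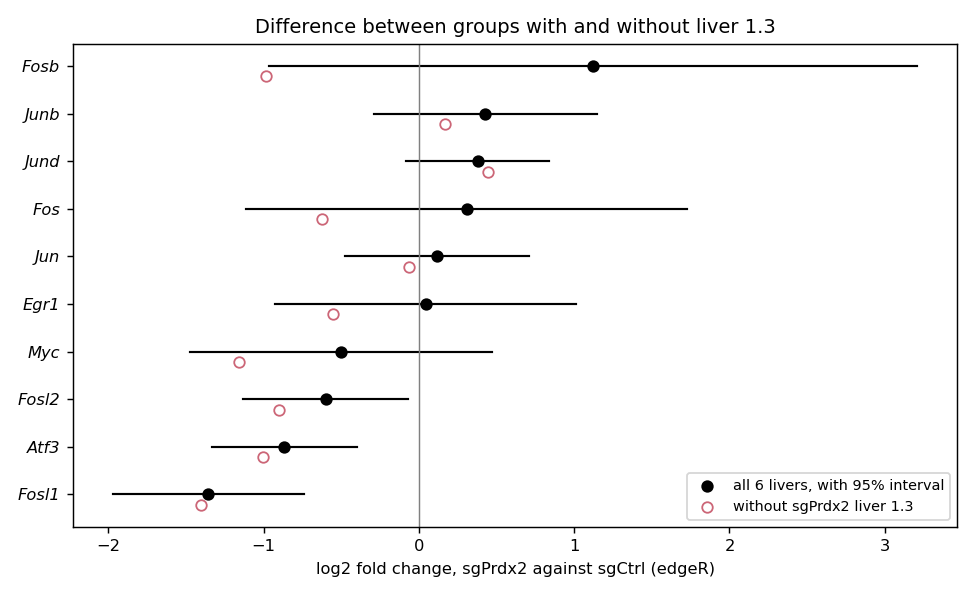
Log2 fold change of each member, sgPrdx2 against sgCtrl livers, by edgeR (horizontal axis). Filled points with 95% intervals use all 6 livers and open points leave out sgPrdx2 liver 1.3. The open points of Fos, Fosb, Jun and Egr1 lie on the other side of 0 from their filled points, and those of Fosl1, Fosl2, Atf3 and Myc are negative in both.

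Without liver 1.3, the log2 fold changes became -0.62 for Fos, -0.99 for Fosb, -0.55 for Egr1 and -0.06 for Jun, all of which had been positive. Those of Fosl2 and Myc moved to -0.90 and -1.16. The members' median went from 0.08 to -0.76, while that of all genes stayed at -0.02. With 5 livers, edgeR called 0 of all genes tested, although 3993 had an unadjusted p under 0.05, and 4 members were among the latter (Fosl1, Fosl2, Atf3 and Myc). The adjusted p of Fosl2 was then 0.0763 and that of Myc 0.0891. Leaving out sgCtrl liver 5.1 instead also turned Fos (-0.06), Jun (-0.11) and Egr1 (-0.09) negative.

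Levels of different genes were compared after dividing CPM by the exon length of each gene in GENCODE M21. That length includes exon shared with a gene on the opposite strand, 57.2% for Fosl1 and 52.6% for Jund. Whether counting used the strand is not given, so reads from shared exon may be missing and these 2 levels too low. In sgCtrl livers the order, in mean CPM per kb of exon, was Jund at 49.8, Junb at 39.3, Jun at 33.5, Atf3 at 30.1, Egr1 at 27.7, Myc at 13.3, Fos at 12.1, Fosl2 at 2.38, Fosl1 at 0.453 and Fosb at 0.209. The ranges of the 3 livers overlapped between neighbours from Jund to Egr1 and between Myc and Fos, and did not overlap at the other steps. In sgPrdx2 livers the mean levels per kb were 64.8 for Jund, 52.9 for Junb, 36.3 for Jun, 28.6 for Egr1, 16.5 for Atf3, 14.9 for Fos, 9.39 for Myc, 1.57 for Fosl2, 0.449 for Fosb and 0.176 for Fosl1. Atf3 stood below Egr1, and Fosb above Fosl1 by its mean, although in both cases the ranges of the livers overlapped.

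Transcripts of the Jun family outnumbered those of the Fos family in every liver. The ratio of their summed CPM per kb was 11.4, 8.55 and 6.50 in sgCtrl livers 5.1, 7.1 and 7.2 and 12.7, 5.41 and 18.9 in sgPrdx2 livers 1.1, 1.3 and 3.2. The lowest and the highest ratio were both in sgPrdx2 livers, so the groups overlapped. Fos made up 64.5% to 84.2% of the Fos family level per kb in sgCtrl and 81.5% to 89.3% in sgPrdx2 livers. Fosl1 made up 2.28% to 6.00% and 0.582% to 2.33% of the family level, with the same limit from its shared exon.

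**Figure D3:**
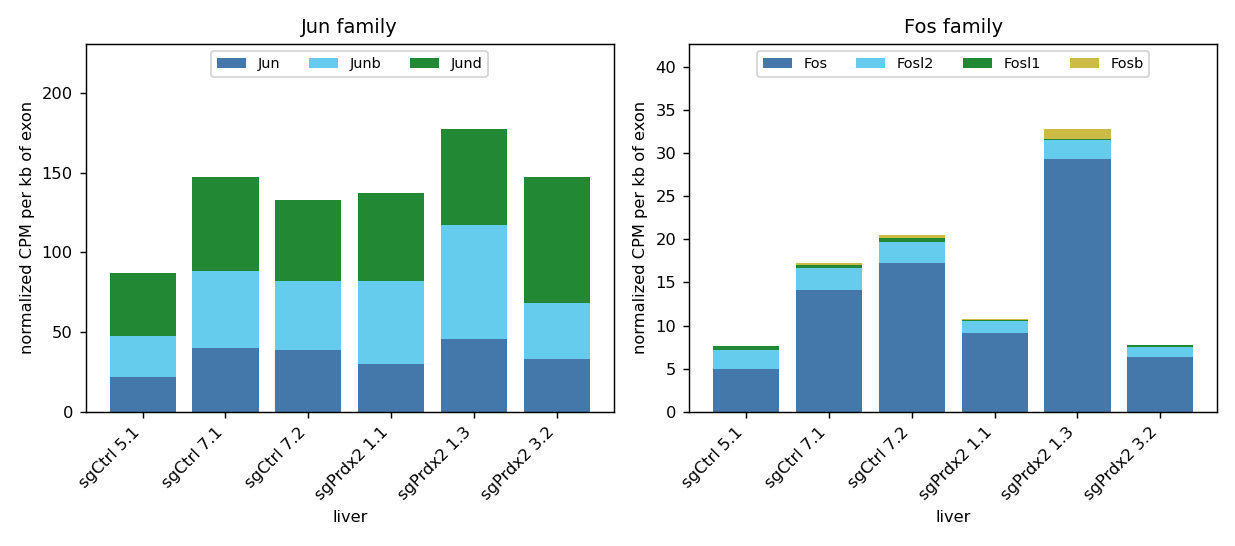
Level per kb of exon (normalized CPM per kb, vertical axes, different scales) of the Jun family, left, and the Fos family, right, in each liver (horizontal axes), stacked by gene. Jun family sums lie between 87.4 and 178 and Fos family sums between 7.68 and 32.8, with liver 1.3 highest for both.

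Among 30 other immediate early genes, 2 were called and both were lower in sgPrdx2 livers, beside 1.54% of all genes called lower. Egr2, a zinc finger relative of Egr1, had 11.4, 15.3 and 13.0 CPM in sgCtrl livers 5.1, 7.1 and 7.2 and 5.74, 7.06 and 4.67 CPM in sgPrdx2 livers 1.1, 1.3 and 3.2. It was lower in all 3 sgPrdx2 livers (log2 fold change -1.18, SE 0.20, adjusted p = 0.0373 in edgeR's test). Ier5, a growth and stress response gene, fell from 29.7 ± 2.44 to 19.8 ± 1.34 CPM (SD, n = 3 each, log2 fold change -0.59, adjusted p = 0.0471). Next by p came Klf6, a zinc finger factor, with 64.0 ± 3.56 and 38.5 ± 10.7 CPM (log2 fold change -0.73, adjusted p = 0.0864). Of the 30 genes, 19 had a negative and 11 a positive log2 fold change, with a median of -0.18, and 9 had an unadjusted p under 0.05 with a lower and 2 with a higher level, 11 of 30 beside 24.9% of all genes. DESeq2 called 6 of them, where it called 13.4% of the genes it adjusted. All 6 were lower: Egr2, Ier5, Klf4, Klf6, Ctgf and Sgk1. Leaving out any 1 liver other than 3.2 left 0 called by edgeR, and without liver 3.2 it called 2 lower and 1 higher.

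Liver 5.1 was the highest of all livers for 10 of these 30 genes (20.9% of all genes tested) and liver 1.3 for 9 (8.00%). Nr4a1, an orphan nuclear receptor induced with Fos and Egr1, had 7.01, 12.5 and 20.6 CPM in sgCtrl livers 5.1, 7.1 and 7.2 and 7.70, 56.8 and 6.54 CPM in sgPrdx2 livers 1.1, 1.3 and 3.2. Btg2, a brake on proliferation, had 24.5, 87.3 and 77.0 CPM and 59.0, 163 and 40.6 CPM in the same order of livers. Errfi1, an inhibitor of the EGF receptor, had 270, 226 and 259 CPM and 318, 799 and 307 CPM, with every sgPrdx2 liver above every sgCtrl liver but an adjusted p of 0.171. These 3 genes were picked after their values were seen, as examples of the pattern in Fos, Fosb and Egr1.

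**Figure D4:**
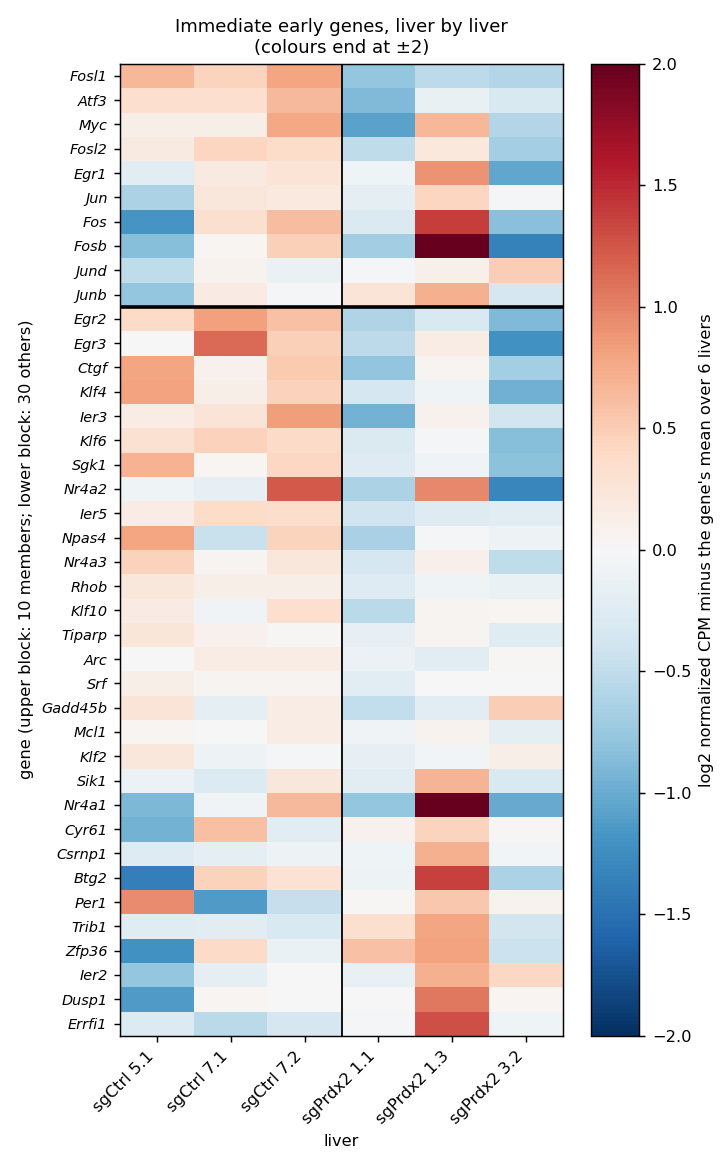
Each immediate early gene (rows, the 10 members above the thick line and 30 others below it, each block sorted by the difference between group means) in each liver (columns). Colour gives log2 normalized CPM minus the gene's mean over the 6 livers, and colours end at 2, which Fosb and Nr4a1 exceed in liver 1.3 (2.39 and 2.11). Genes at the top of each block are lower in sgPrdx2 livers, and the column of liver 1.3 holds the deepest reds, among them Fos, Fosb, Nr4a1, Btg2 and Errfi1.

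Of 14 AP-1 partners and related basic leucine zipper genes, edgeR called 0, and 3 had an unadjusted p under 0.05, below the share of all genes. DESeq2 called 1 lower and 1 higher, where it called 13.4% of the genes it adjusted. Their median log2 fold change was -0.23, with 11 negative and 3 positive. The smallest p values were those of Cebpb, a regulator of the acute phase response and of regeneration (27.3 ± 4.29 CPM in sgCtrl and 39.7 ± 6.22 CPM in sgPrdx2 livers, log2 fold change 0.54, adjusted p = 0.111), of Jdp2, a repressor that pairs with JUN (6.52 ± 1.497 and 4.04 ± 0.590 CPM, -0.69, adjusted p = 0.111), and of Maff, a small Maf protein (20.8 ± 3.90 and 14.2 ± 2.07 CPM, -0.55, adjusted p = 0.119).

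The known upstream regulators showed no call by edgeR either. SRF acts on Fos and Egr1 through the CArG box together with ternary complex factors. The list also held the SRF cofactors Mkl1 and Mkl2. Of these 6 genes, counting Srf, which is also among the 30 above, 5 had a negative log2 fold change, and the median was -0.31. An unadjusted p under 0.05 was found for 3 (2 lower, 1 higher), beside 24.9% of all genes. DESeq2 called 1, as lower, where it called 13.4% of the genes it adjusted. Elk3 had 27.9 ± 1.83 CPM in sgCtrl and 18.8 ± 2.68 CPM in sgPrdx2 livers (log2 fold change -0.57, adjusted p = 0.0660), Mkl1, a cofactor of SRF that responds to actin, had -0.34 (adjusted p = 0.119) and Elk4 had 0.26 (adjusted p = 0.201). The kinases and scaffolds of the JNK pathway, which leads to phosphorylation of JUN, gave small differences. The 8 genes had log2 fold changes from -0.30 to -0.01. None was called by edgeR or DESeq2, and 0 had an unadjusted p under 0.05. Lowest by p were Map3k1 (-0.30, adjusted p = 0.423), Mapk8ip3 (-0.11, adjusted p = 0.603) and Map2k4 (-0.10, adjusted p = 0.759). RNA levels say nothing of the phosphorylation by which these kinases act.

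Of 18 genes known as targets of AP-1, 5 were called, all lower in sgPrdx2 livers, beside 1.54% of all genes called lower. The other 13 were not called. A negative log2 fold change was found for 16. All 3 sgPrdx2 livers lay below all sgCtrl livers for 9, beside 17.5% of all genes tested. The median was -0.54, beside -0.02 for all genes. Mmp12, the macrophage elastase, had 720, 549 and 551 CPM in sgCtrl livers 5.1, 7.1 and 7.2 and 212, 257 and 312 CPM in sgPrdx2 livers 1.1, 1.3 and 3.2 (log2 fold change -1.22, SE 0.20, adjusted p = 0.0358 in edgeR's test). Mmp13, a collagenase, had 5.33 ± 0.683 and 2.06 ± 0.523 CPM (-1.37, adjusted p = 0.0384). Plaur, the urokinase receptor, had 22.2 ± 3.81 and 10.5 ± 1.91 CPM (-1.07, adjusted p = 0.0394). Cd44, the hyaluronan receptor, had 69.6 ± 3.97 and 37.3 ± 2.88 CPM (-0.90, adjusted p = 0.0328), and Hmox1, heme oxygenase 1, had 130 ± 25.3 and 64.2 ± 6.13 CPM (-1.01, adjusted p = 0.0386). DESeq2 called 8 of the 18, all lower, where it called 13.4% of the genes it adjusted, in either direction. Leaving out 1 liver left 0 to 7 of them called, and without liver 5.1, 7.2, 1.1 or 1.3 the number was 0.

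**Figure D5:**
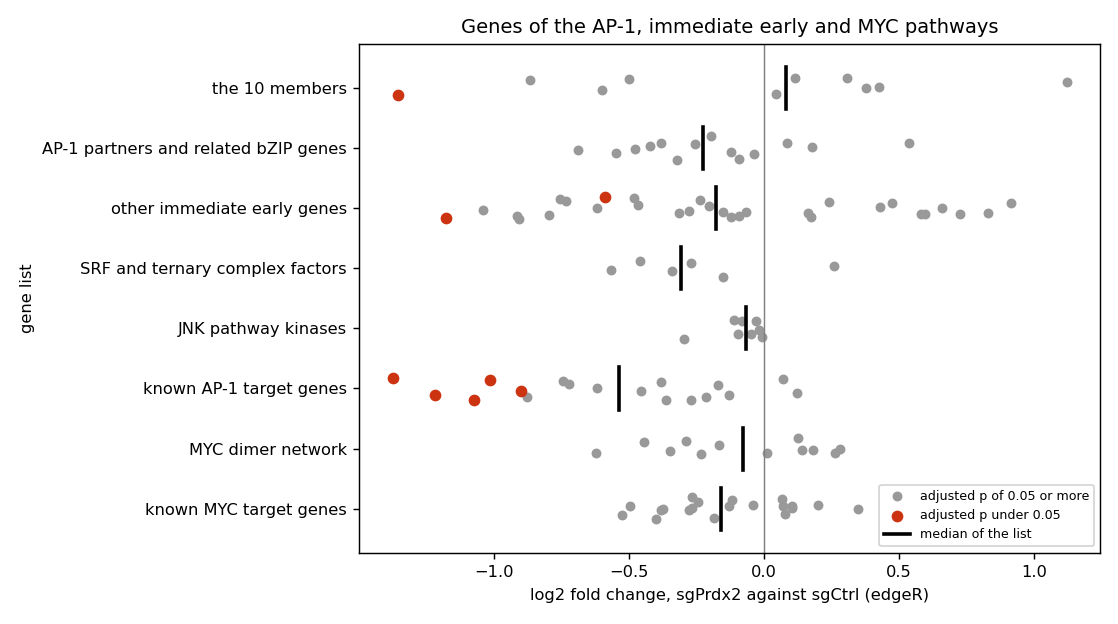
Log2 fold change, sgPrdx2 against sgCtrl livers, by edgeR (horizontal axis) of every tested gene in 8 gene lists (vertical axis). Red points had an adjusted p under 0.05 and black bars mark list medians. All 8 red points lie left of 0, with 5 of them among the known AP-1 target genes, whose median is -0.54.

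MYC acts as a dimer with MAX, in competition with MXD and MNT proteins. Of 12 genes of this network, edgeR called 0, and 2 had an unadjusted p under 0.05, both lower, beside 24.9% of all genes. DESeq2 called 1, as lower, where it called 13.4% of the genes it adjusted. Mlxip had 23.3 ± 3.12 CPM in sgCtrl and 15.1 ± 2.18 CPM in sgPrdx2 livers (log2 fold change -0.62, adjusted p = 0.0709), Max had 37.0 ± 4.97 and 27.2 ± 2.60 CPM (-0.44, adjusted p = 0.114) and Mlx had 29.9 ± 1.21 and 35.9 ± 4.31 CPM (0.26, adjusted p = 0.241). Of 20 known MYC target genes, edgeR called 0, and 4 had an unadjusted p under 0.05, all lower and again below the share of all genes. DESeq2 called 2 of the 20, both lower, beside the same 13.4%. The values were -0.50 for Ccnd2, encoding cyclin D2 (log2 fold change, adjusted p = 0.0889), -0.37 for Odc1, an enzyme of polyamine synthesis (adjusted p = 0.0895), and -0.53 for Nop58, of the ribosomal RNA modification machinery (adjusted p = 0.0997). The medians of the lists were -0.08 and -0.16.

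Some hepatocyte and macrophage markers differed between the groups. Of all genes tested, edgeR called 3.33%, and 24.9% had an unadjusted p under 0.05. DESeq2 called 13.4% of the genes it adjusted. Of 8 hepatocyte markers, 5 were called, all higher in sgPrdx2 livers, and their summed level was 77056 to 82244 CPM in sgCtrl and 131325 to 177716 CPM in sgPrdx2 livers. Of 8 macrophage markers, 2 were called, both lower, with sums of 1912 to 2460 and 1226 to 1363 CPM. Stellate cell and myofibroblast markers summed to 953 to 1371 and 796 to 831 CPM and cholangiocyte markers, which include the AP-1 target Spp1, to 1624 to 1852 and 1216 to 1389 CPM. In these lists edgeR called 0 of 6 and 0 of 5 genes, 3 and 2 had an unadjusted p under 0.05, and DESeq2 called 2 and 1, all lower. Endothelial sums of 150 to 182 and 91.0 to 168 CPM overlapped. Of the 5 markers, edgeR called 1, 3 had an unadjusted p under 0.05 and DESeq2 called 2, all lower. Their median log2 fold change was -0.76, with 4 negative, while Stab2 had a positive one (0.27). For 3 of the 5, all sgPrdx2 livers lay below all sgCtrl livers, beside 17.5% of all genes tested. Lymphocyte sums overlapped at 21.6 to 28.3 and 19.96 to 25.6 CPM, with 1 of 6 called lower, and neutrophil sums at 21.98 to 29.1 and 18.7 to 23.3 CPM, with 0 of 4 called by edgeR, 0 of 6 by DESeq2 and 2 at an unadjusted p under 0.05. Single genes made up a large part of some sums. Mean levels in sgCtrl livers were 60214 CPM for Alb, 931 CPM for Gpnmb and 1578 CPM for Spp1. No marker listed was at 0 in all livers.

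The summed macrophage, stellate cell and cholangiocyte markers were lower in the same livers as Fosl1, Atf3, Egr2 and Ier5. Spp1 made up most of the cholangiocyte sum. Of the 5 cholangiocyte markers, 2 (Spp1 and Epcam) separated the groups, beside 17.5% of all genes tested with lower levels. Krt7, Krt19 and Sox9 overlapped. Endothelial sums overlapped, although 3 of 5 markers were lower in every sgPrdx2 liver. The 5 called AP-1 target genes, several of which macrophages express, were also lower in the sgPrdx2 livers. In those livers the summed hepatocyte markers were higher. The part of these cell types in the differences of the named genes was not tested. Single macrophage markers varied among the sgPrdx2 livers: Marco had 2.98, 8.43 and 2.98 CPM and Cd68 133, 143 and 246 CPM in livers 1.1, 1.3 and 3.2. Both were picked after their values were seen.

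The genes whose profile over the 6 livers was nearest to that of a member were found by the root mean square difference of centred log2 CPM, among 14122 genes. Nearest to Fos were Chac1, an enzyme of glutathione breakdown induced by stress (0.172), Btg2 (0.199) and the macrophage receptor Marco (0.306). Chac1 had 1.599, 4.14 and 6.64 CPM in sgCtrl livers 5.1, 7.1 and 7.2 and 3.44, 8.32 and 2.30 CPM in sgPrdx2 livers 1.1, 1.3 and 3.2, the same order of livers as Fos. Nearest to Jun were Slc25a33, a mitochondrial nucleotide carrier (0.111), Gm35339 (0.115) and 8430429K09Rik (0.133). Nearest to Myc were BC016579 (0.205), the organic cation transporter Slc22a3 (0.258) and the phosphatase Dusp8 (0.265). These values describe 6 livers and carry no test.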

How the data were processed

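The authors deposited whole-number read counts for 52459 genes in each of the 6 livers, without normalization. The submitters' processing notes name HISAT2, HTSeq, DESeq2 and the build GRCm38, while their versions, the annotation and the use of strand are not given in the sources used here. A deposited table of the authors' own DESeq2 comparison (log2 fold changes, standard errors, statistics and p values) was not used. All columns of counts were matched to a sample by name (0 were not).

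The comparison of sgPrdx2 with sgCtrl used edgeR 4.0.16 (R 4.3.3) on these counts: a filterByExpr filter (minimum count 10), TMM factors, then glmQLFit and glmQLFTest on the 6 livers without covariates. Adjustment was by Benjamini-Hochberg over 17032 genes, a gene was called below 0.05, and every adjusted p is from this test unless DESeq2 is named. Standard errors were obtained from the log2 fold change and its F statistic. Each liver is labelled with a mouse number of its own. The fits were tested on simulated data.

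Gene positions, exon lengths and overlaps came from GENCODE M21 and promoters from RefSeq, both of build GRCm38. The members and gene lists were chosen with earlier results of these data known, so no list is independent evidence. All members and Prdx2 are named, as are from each pathway list the called genes, up to 5 by p, or the 3 with the smallest p where fewer than 3 were called, and the 3 genes nearest to Fos, Jun and Myc. Other names are marked as chosen after their values were seen or come from a count that they explain. The alternatives were RLE, upper-quartile and total-count scaling, DESeq2 (version 1.42.0), a filter of 10 counts required in every liver or none, and leaving out each liver in turn.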

Additional observations from a re-analysis of the deposited data

How the results depend on the processing

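Over 12 alternatives, the log2 fold changes of Fosl1, Fosl2, Atf3 and Myc stayed negative and that of Junb positive. Of the 120 values of members, 100 kept their direction and their side of the threshold, 10 turned, 6 lost and 4 gained a call. The number of members called, 1 with all livers, was 3 with total counts only (Fosl1, Fosl2 and Atf3), 2 without a filter on low counts, 2 with DESeq2 and 0 to 0 when 1 liver was left out. All genes called, 567 with all livers, numbered 3247 with total counts only, 1128 without a filter, 2048 with DESeq2 and 0 to 619 when 1 liver was left out (0 without liver 5.1, 7.2, 1.1 or 1.3, 394 without liver 7.1 and 619 without liver 3.2), with 3114 to 4436 at an unadjusted p under 0.05. Total counts only shifted the median of all genes from -0.02 to -0.39, and 206 of the genes then called were higher in place of 305. Jun (-0.23), Jund (-0.00096) and Egr1 (-0.27) then turned negative on the log2 scale but stayed above that median. Leaving out 1 liver moved the log2 fold change of Fos between -0.62 and 0.68, of Fosb between -0.99 and 1.61, of Jun between -0.11 and 0.26 and of Egr1 between -0.55 and 0.41, and the members' median between -0.76 and 0.20. The lowest of these came without liver 1.3, except for Jun, whose lowest value came without liver 5.1 (-0.064 without liver 1.3). Without liver 5.1, Fos was at -0.065 and Egr1 at -0.092. The adjusted p ranged from 0.0133 to 0.162 for Fosl1 and from 0.00265 to 0.187 for Atf3 over all settings. RLE, upper-quartile scaling and a stricter filter changed no call of a member. No paired analysis was possible because the groups share no replicate number. Livers 7.1 and 7.2 share the first part of their number, as do livers 1.1 and 1.3, and its meaning is not given. No first part occurs in both groups, so whatever it stands for cannot be told apart from the guide. If it marks related mice, the livers of a group are not fully independent. Depth limits Fosl1 and Fosb most, with 12 to 54 and 16 to 385 counts per liver.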

Other observations

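Genes near the other members were looked up after the values were seen, by the same root mean square difference of centred log2 CPM over the 6 livers. Nearest to Fosl1 were Col5a2, encoding a fibrillar collagen chain (0.102), Adam8, a myeloid metalloprotease (0.121), and C5ar1, the complement C5a receptor (0.126). The macrophage gene Gpnmb lay close behind (0.146). Nearest to Fosb was Nr4a1 (0.205), well ahead of Fos itself (0.527). Nearest to Atf3 were Arhgef2 (0.0908), Tnfrsf12a, the TWEAK receptor (0.138), and Prom1 (0.146). Nearest to Junb were Abhd17c (0.123) and Zfp36l1, an RNA decay factor (0.154), and nearest to Jund was Nrep (0.0450). Each value rests on 6 livers that share 1 comparison, and no test was made.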
